A study of Mus musculus with 12 samples.

Results

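The genes described here are 34 genes of macrophages and monocytes, measured by RNA-seq in whole MC38 tumours. They were chosen by name, as the rows of the count table whose gene name is on a list of macrophage and monocyte genes. All 34 were found among 43698 rows, and 33 passed the filter on low counts. MC38 is a mouse colon carcinoma line, grown here under the skin of C57BL/6J mice aged 8 weeks, and tumours of all groups, Ctrl included, were collected on day 20. There were 6 groups of 2 libraries. Ctrl mice received PBS. DOX is doxorubicin, a topoisomerase poison, and DPD was read as the doxorubicin prodrug named in the series title; each was injected into the abdomen at 14 µg, every 3 days from day 9. RP was read as Ru-PD-L1, a ruthenium catalyst joined to an antibody to the checkpoint ligand PD-L1, given at 20 µg by the same route and schedule. The letters of R+X were taken to mean the conjugate with DOX, and those of R+D the conjugate with DPD, with the drug injected beside the tumour 6 h after the conjugate; the conjugate's dose in these groups was not stated. If R+X and R+D were read the wrong way round, their values change places. Nothing in the labels ties the 2 libraries of a group to different mice. The p-values thus reflect the spread among these samples only, and that spread may be technical.

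Blood monocytes enter a tumour through the chemokine receptor CCR2 and mature there into macrophages, losing monocyte genes such as Ly6c2 and Plac8. Macrophages depend on signals through the receptor CSF1R, take up dead cells and debris through receptors such as MERTK and CD206 (Mrc1), and are the main makers of the complement protein C1q in tissue. Macrophages loaded with lipid express Apoe, Trem2, Spp1 and Gpnmb. In whole tumour RNA, fewer cells of a type and less RNA per cell cannot be told apart.

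The promoters of 4 members that the results turn on are given in GRCm38.p6 RefSeq coordinates: Plac8 and Mrc1, which were highest in RP, and C1qb and C1qc, neighbouring genes whose levels moved together from library to library. Each stretch is read 5′ to 3′ on the gene's strand, lies within the 250 bases before the RefSeq start, and ends before the GENCODE start of the gene. Capitals mark GAGGAA or its reverse complement TTCCTC, the core letters bound by PU.1, the transcription factor of the myeloid lineage.
Plac8, chr5:100572246-100572455, minus strand: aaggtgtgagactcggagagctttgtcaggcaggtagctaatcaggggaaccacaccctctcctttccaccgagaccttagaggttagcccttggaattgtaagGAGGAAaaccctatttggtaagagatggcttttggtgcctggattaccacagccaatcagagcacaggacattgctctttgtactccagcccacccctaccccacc
Mrc1, chr2:14229164-14229391, plus strand: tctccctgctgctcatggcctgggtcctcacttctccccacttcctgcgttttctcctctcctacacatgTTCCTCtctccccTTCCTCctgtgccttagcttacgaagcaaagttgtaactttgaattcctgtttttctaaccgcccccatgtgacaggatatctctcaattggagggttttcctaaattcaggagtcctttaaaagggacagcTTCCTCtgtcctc
C1qb, chr4:136886201-136886450, minus strand: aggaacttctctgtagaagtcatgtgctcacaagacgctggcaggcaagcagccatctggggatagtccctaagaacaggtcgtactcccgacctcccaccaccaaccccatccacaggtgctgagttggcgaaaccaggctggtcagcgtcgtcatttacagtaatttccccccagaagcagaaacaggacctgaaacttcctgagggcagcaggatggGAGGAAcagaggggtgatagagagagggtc
C1qc, chr4:136893066-136893164, minus strand: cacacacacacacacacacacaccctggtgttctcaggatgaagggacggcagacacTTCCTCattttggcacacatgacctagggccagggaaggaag

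The motif was searched on both strands in the full 250 bases. It was present for 18 of the 25 members with a RefSeq promoter entry (72%), against 25.9% of 27025 genes with an entry. Only stretches that hold the motif were printed above. Plac8 also has a RefSeq promoter entry at chr5:100563097-100563346, minus strand, with 0 matches. A match describes the letters only.

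Read depth was similar in all libraries, with 46547114 to 56462259 counts each. A count of 3 in a library, the floor used here, corresponds to 0.0495 to 0.0696 CPM (counts scaled to library size with TMM). Markers of other cells differed between libraries. The summed CPM of 8 skeletal muscle genes, none of them at 0 in any library, was 218.2 and 83.5 in RP and 287 in R+D replicate 2, and 8.56 to 23.0 in the other 9 libraries. Summed levels of 7 T cell markers were 35.2 to 39.7 CPM in RP, 41.6 CPM in R+D replicate 2, and 11.3 to 25.3 CPM elsewhere. B cell markers (6 genes; Ms4a1 and Cd79b had a count of 0 in at least 1 library) summed to 25.2 and 15.6 CPM in RP, 18.0 CPM in R+D replicate 2, 12.2 CPM in DPD replicate 2 and 1.09 to 5.34 CPM elsewhere. Red cell markers (5 genes) summed to 223.2 to 260.3 CPM in Ctrl, 347.5 to 368.4 CPM in DOX, 124 and 25.3 CPM in DPD, and 21.7 to 87.7 CPM in RP, R+X and R+D. The part of these cells in the results was not tested, other than by the muscle covariate. Epithelial markers of colon carcinoma were near 0: Krt8 reached at most 0.309 CPM and Epcam at most 1.3 CPM, while Cdh1 was 9.90 to 18.1 CPM.

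Levels of the members spanned a wide range. Per kilobase of exon, the median over the 12 libraries was highest for Lyz2, the lysozyme of macrophages and monocytes, at 671 CPM per kb. Spp1 (osteopontin) followed at 296 CPM per kb, and Axl, a receptor that binds GAS6, at 219.4 CPM per kb. The Axl range over libraries was 191 to 234 CPM per kb and overlapped that of Spp1, whose highest library held 409 CPM per kb, so these neighbours do not differ beyond their spread. Apoe (172 CPM per kb), C1qb (136) and C1qa (132) came next, with overlapping ranges. Csf1r was at 11.9 CPM per kb, Adgre1 (F4/80) at 6.35 and Ccr2 at 3.57. Cd163, Marco and Vsig4 stood lowest, at 0.119, 0.0809 and 0.0362 CPM per kb. Vsig4, a complement receptor of tissue macrophages, had 0 to 0.196 CPM and was not tested.

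**Figure D1:**
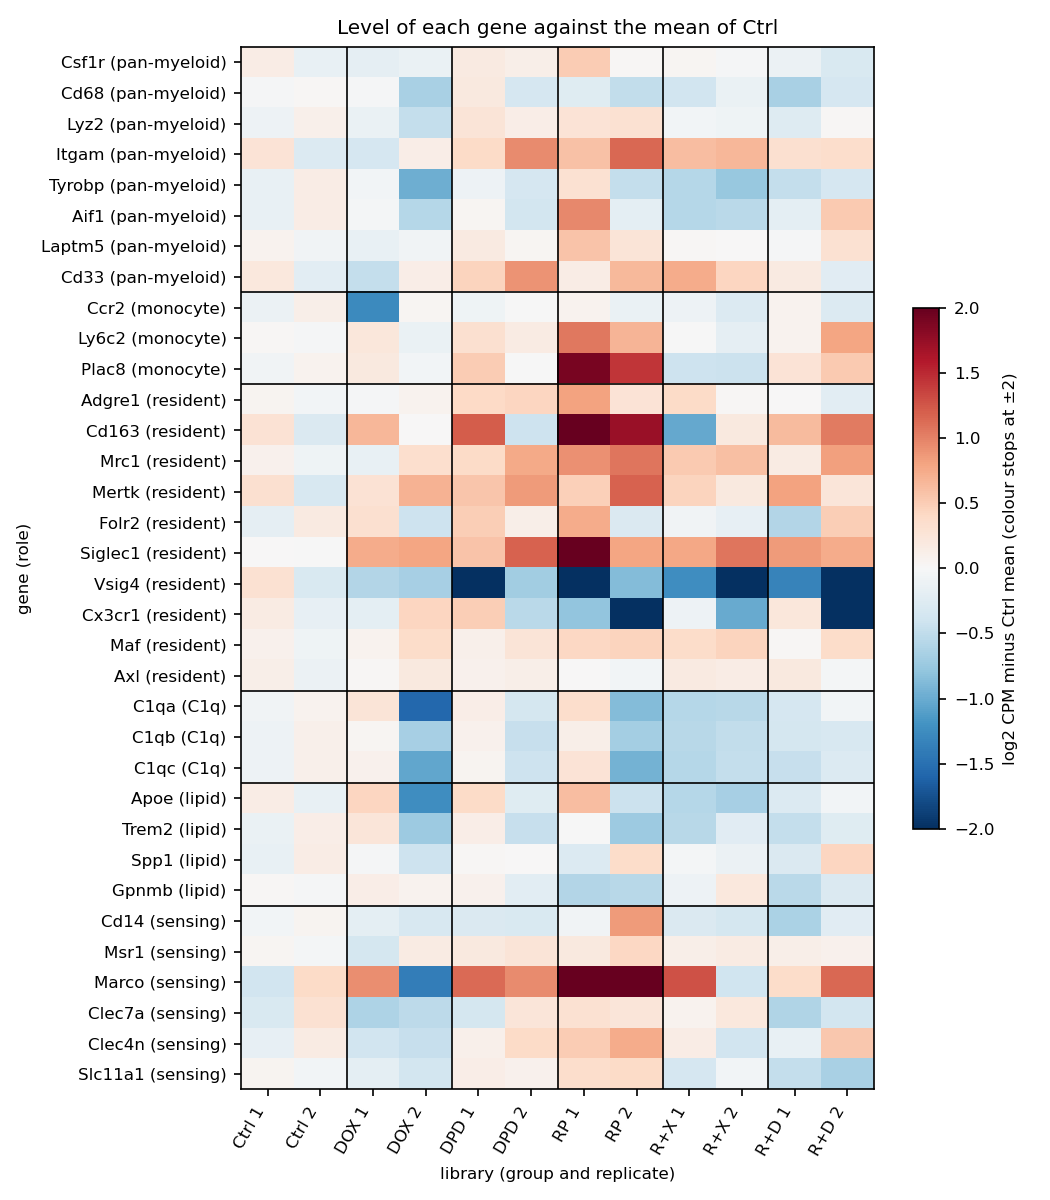
Level of each of the 34 genes (rows, by role) in the 12 libraries (columns), as log2 CPM minus the mean of the 2 Ctrl libraries, with colour from blue (lower) to red (higher). The RP columns are red for Plac8, Siglec1, Cd163 and Marco, and blue for Gpnmb and Cx3cr1; Vsig4, also blue, had at most 0.196 CPM in any library.

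Of the 33 genes tested, 0 passed an adjusted p of 0.05 with edgeR's quasi-likelihood test (Benjamini-Hochberg adjustment over 19525 genes) in any of 14 comparisons. The comparison with the most members at an unadjusted p under 0.05 was RP against Ctrl. Each value below is therefore a measured level or difference, not a called change.

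RP against Ctrl asked what the conjugate did without a drug. Monocyte and resident macrophage genes were mostly higher in RP, C1q genes were slightly lower, and lipid-associated genes were divided. edgeR called 0 of 33 members, against 0.0154% of all genes tested. At an unadjusted p under 0.05 there were 12 members higher, 36.4% of the members against 12% of all genes, and 1 lower, 3.03% against 9.38%. Marco is among the 12 and passed the filter only through its RP libraries, so the 12 hold a gene that had to differ; without it there were 11 of 32 higher (34.4%). DESeq2 called 7 of 32 members with an adjusted p (Itgam, Ly6c2, Plac8, Cd163, Mrc1 and Siglec1 higher, Gpnmb lower), against 7.34% of all genes. limma-voom called 1, Plac8, against 0.0819%. The median difference of the 33 members was 0.31 on the log2 scale, and that of all genes tested was 0.058. With a muscle score as a covariate, the mean log2 CPM of the 8 muscle genes, 5 members had an unadjusted p under 0.05 and the median of the 33 was 0.18. In 15 members both RP libraries were above both Ctrl libraries, against 32.3% of all genes, and in 3 both were below, against 27.1%. Marco, whose direction was set by the filter, is among the 15.

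**Figure D2:**
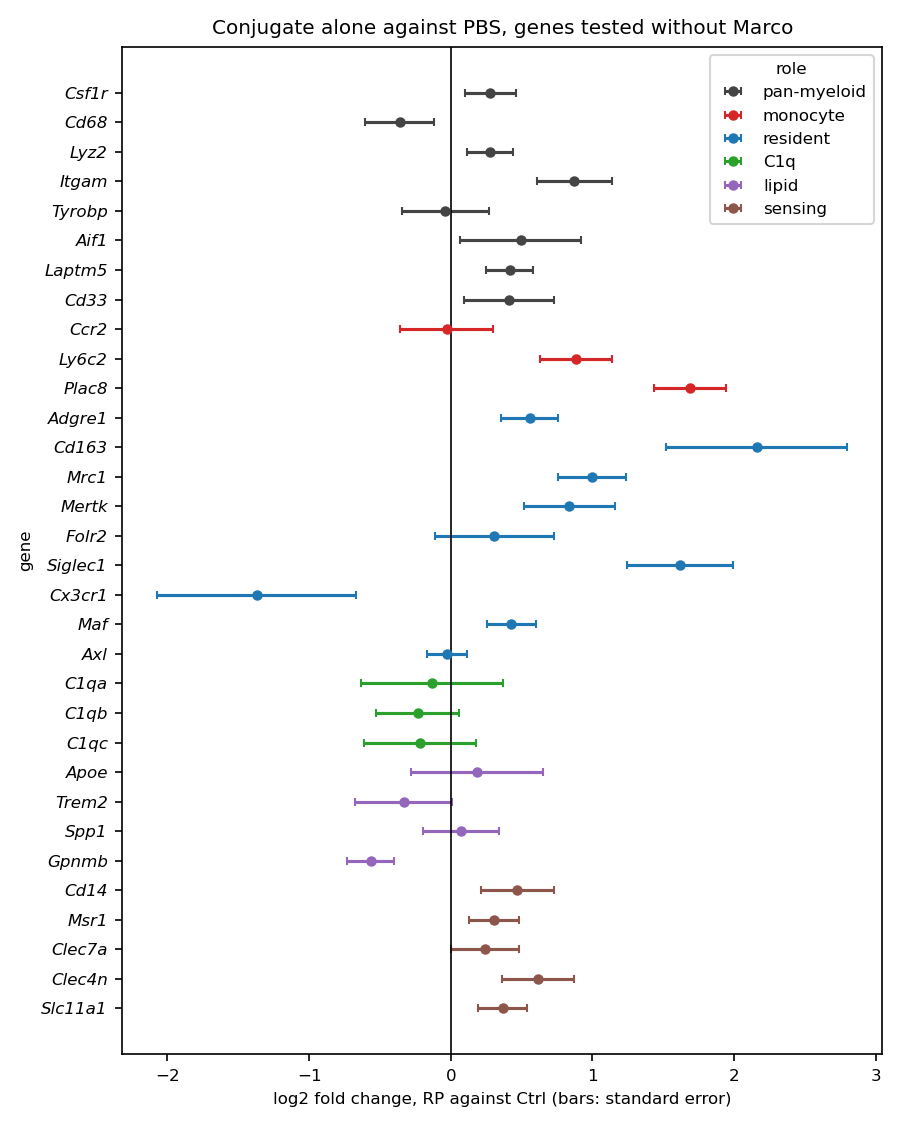
Log2 fold change of RP against Ctrl from edgeR (points) with its standard error (bars), for the genes tested other than Marco, coloured by role. Plac8, Siglec1 and Cd163 lie farthest to the right, and Cx3cr1 and Gpnmb to the left.

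Plac8, a gene abundant in inflammatory monocytes, had the smallest p of the members. Its level was 17.8 and 12.9 CPM in RP and 4.53 and 5.01 CPM in Ctrl, and 3.54 to 6.90 CPM in the other 8 libraries. Both RP libraries thus stood above every other library. The log2 fold change of RP against Ctrl was 1.69 ± 0.25 (SE), with an edgeR adjusted p of 0.0611. Ly6c2, the surface antigen by which inflammatory monocytes are recognised, was 19.9 and 15.2 CPM in RP and 9.69 and 9.38 CPM in Ctrl. R+D replicate 2 reached 16.6 CPM, inside the RP range, and the remaining libraries held 8.45 to 11.9 CPM. Ly6c2 is 97.7% identical to Ly6c1 over 605 aligned transcript bases, and Ly6c1 was at 350 to 660 CPM, so reads could be shared between them. Ly6c1 was 557 and 660 CPM in RP, 607 CPM in R+D replicate 2, 445 and 440 CPM in Ctrl, and 350 to 508 CPM elsewhere. Both the level of Ly6c2 and its differences between libraries are therefore uncertain. Ccr2 did not go with Plac8 and Ly6c2. It was 27.2 and 23.5 CPM in RP and 23.7 and 28.0 CPM in Ctrl, so the groups overlapped, and 1 library, DOX replicate 1 at 10.7 CPM, stood apart from the others.

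Among the resident macrophage genes, Mrc1, the mannose receptor CD206, was 63.9 and 70.7 CPM in RP and 35.6 and 31.9 CPM in Ctrl. The groups did not overlap, and the log2 fold change was 0.99 ± 0.24 (edgeR adjusted p = 0.128). Siglec1, a sialic acid receptor of macrophages, was 26.5 and 10.3 CPM in RP and 6.04 and 5.92 CPM in Ctrl. Its log2 fold change was 1.62 ± 0.37 (edgeR adjusted p = 0.127), 0.75 without RP replicate 1 and 2.13 without RP replicate 2. The 8 other treated libraries were at 8.95 to 13.5 CPM, so both Ctrl libraries were the lowest of the 12, a pattern picked out after the values were seen. Cd163, the haemoglobin scavenger receptor, was 2.62 and 1.62 CPM in RP and 0.207 to 1.121 CPM in all other libraries.

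The remaining resident genes differed less. Adgre1 was 34.2 and 23.8 CPM in RP and 20.5 and 18.9 CPM in Ctrl. Mertk, which binds dying cells, was 7.85 and 12.8 CPM in RP and 7.05 and 4.48 CPM in Ctrl. Maf, a transcription factor of tissue macrophages, was 26.7 and 27.5 CPM in RP and 21.3 and 19.0 CPM in Ctrl. These 3 genes did not overlap between RP and Ctrl, but DPD or R+X libraries reached into the RP range of each. Folr2, a folate receptor, overlapped between RP (9.998 and 4.86 CPM) and Ctrl (5.26 and 6.73 CPM). Cx3cr1, the fractalkine receptor, went the other way, at 4.71 and 1.68 CPM in RP and 9.18 and 7.31 CPM in Ctrl. R+D replicate 2 was also low, at 1.90 CPM, and R+D replicate 1 was at 9.62 CPM. Axl was 959 to 1179 CPM over the 12 libraries, the narrowest range of any member. Its Pearson's r with Csf1r over these libraries was 0.075, and which cells of the tumour made it was not tested.

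Genes shared by most myeloid cells differed less, apart from Itgam. Itgam, the integrin CD11b, was 68.4 and 101 CPM in RP and 54.8 and 37.7 CPM in Ctrl. Neutrophils also carry Itgam, and the 8 neutrophil markers summed to 14.6 and 27.8 CPM in RP, 4.78 to 7.71 CPM in Ctrl and 5.16 to 11.3 CPM elsewhere; Retnlg, Camp and Ltf had a count of 0 in at least 1 library. Their part in the Itgam level was not tested. Csf1r was 97.8 and 70.4 CPM in RP and 76.0 and 62.4 CPM in Ctrl, and Laptm5, a lysosomal protein of blood cells, was 91.3 and 73.3 CPM in RP and 64.8 and 58.5 CPM in Ctrl. Cd68, Lyz2, Tyrobp, Aif1 and Cd33 had log2 fold changes of -0.36 to 0.49 in RP. Rows named as second copies of Aif1, Laptm5 and Trem2 in the table held nearly the same levels as the members, so the reads of these 3 genes may be split or shared and their levels are uncertain.

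**Figure D3:**
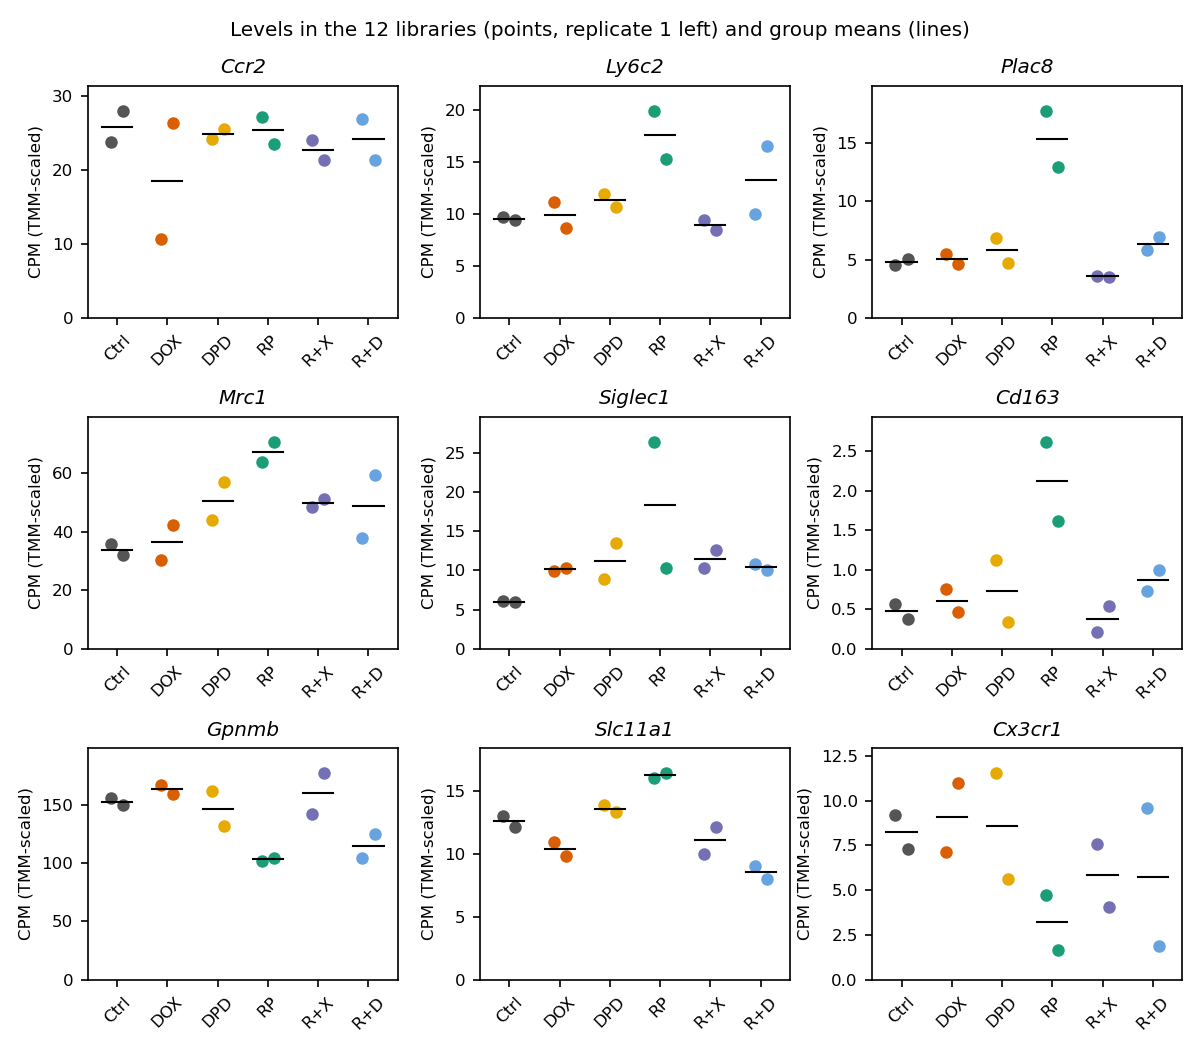
TMM-scaled CPM of 9 members in each of the 12 libraries (points, replicate 1 at the left) and the group mean (line), with each axis starting at 0. Plac8 and Cd163 are highest in both RP libraries, Siglec1 is lowest in both Ctrl libraries, and Ccr2 is low in DOX replicate 1.

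The 3 C1q chains, which assemble into 1 complement protein, varied together between libraries of a group. Their summed level was 440 and 500 CPM in Ctrl, 512 and 232 in DOX, 499 and 353 in DPD, 555 and 267 in RP, 316 and 330 in R+X and 361 and 404 in R+D. RP thus held both the highest level and the second lowest. Over the 12 libraries, Pearson's r between 2 chains was 0.88 to 0.96, a description of points that share libraries. The C1q transcripts are short, with 1.04 to 1.93 kb of exon. Libraries also differed in how gene levels varied with transcript length: over 16223 genes, Spearman's rho of a library's deviations with length ran from -0.385 in Ctrl replicate 2 to 0.311 in DPD replicate 2. The C1q mean was above its 12-library average by 0.39 and 0.42 on the log2 scale in Ctrl replicate 2 and DOX replicate 1, where rho was -0.385 and -0.352. It was below by 0.80 in DOX replicate 2, where rho was 0.288. In RP replicate 1 the C1q mean was above by 0.54 with rho at 0.02. The part of the length trend in the C1q levels was not tested.

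**Figure D4:**
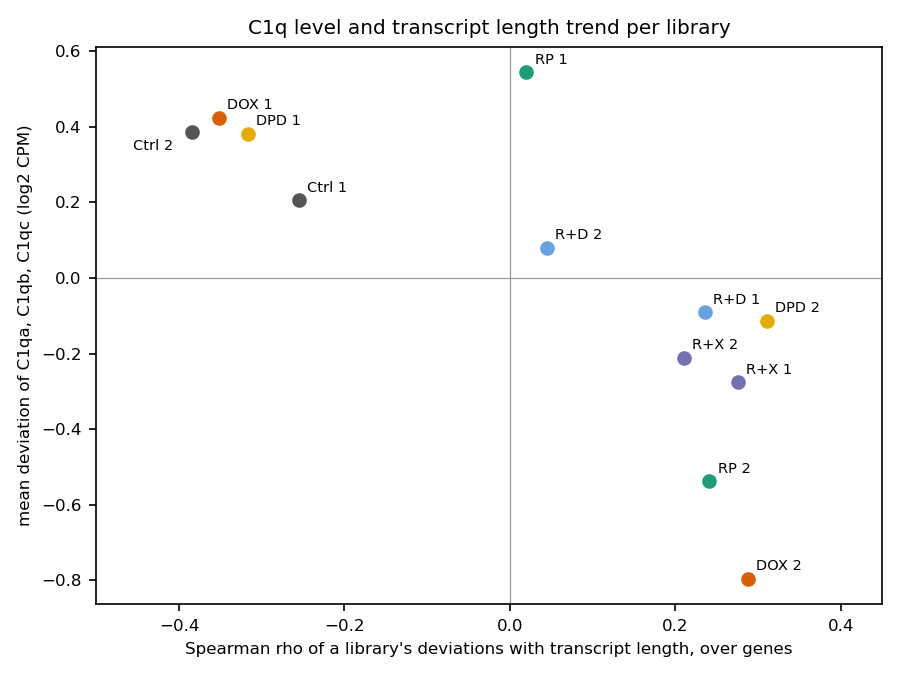
Mean log2 deviation of C1qa, C1qb and C1qc from their 12-library average (vertical axis) against Spearman's rho of each library's deviations with transcript length over 16223 genes (horizontal axis), 1 labelled point per library, coloured by group. Libraries with a negative rho lie above 0, and RP replicate 1 stands at the top with a rho near 0.

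Of the lipid-associated genes, Gpnmb, a glycoprotein of lysosome-rich macrophages, was lower in RP, at 102 and 104 CPM against 156 and 150 CPM in Ctrl. The log2 fold change was -0.57 ± 0.17 (edgeR adjusted p = 0.154). R+D replicate 1 was as low, at 105 CPM. Apoe, the lipid carrier, was 646 and 311 CPM in RP and 465 and 378 CPM in Ctrl. Trem2, the lipid receptor of macrophages, was 16.7 and 10.1 CPM in RP and 15.3 and 18.3 CPM in Ctrl, and Spp1 was 412 and 649 CPM against 451 and 558 CPM. These 3 genes overlapped between RP and Ctrl.

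The genes that sense and take up microbes and debris were all above Ctrl on average in RP. Clec4n (dectin-2), a fungal receptor, was 47.4 and 55.9 CPM in RP and 29.8 and 37.5 CPM in Ctrl. Slc11a1, a metal transporter of phagosomes, was 16.1 and 16.5 CPM in RP, 13.1 and 12.2 CPM in Ctrl, and 8.06 to 13.9 CPM in the other 8 libraries. Cd14, a receptor for bacterial lipopolysaccharide, was 80.1 CPM in RP replicate 2, the highest library, and 42.2 CPM in RP replicate 1, just under the Ctrl range of 42.4 to 46.0 CPM. Marco, a scavenger receptor, had 64 and 38 counts in RP, 2 and 4 in Ctrl, and 0 to 10 in the other libraries; no fold is given because only RP brought it past the filter. Msr1 and the glucan receptor Clec7a differed by 0.31 and 0.24 on the log2 scale.

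The 3 monocyte genes (Ccr2, Ly6c2, Plac8) were then set against 7 resident macrophage genes (Cd163, Mrc1, Mertk, Folr2, Siglec1, Vsig4, Maf) by their mean log2 CPM in each library. Both means were highest in RP. The monocyte mean was 4.41 and 4.06 in RP and at most 3.76 in the other 10 libraries, and the resident mean was 2.65 and 2.54 in RP and at most 2.25 elsewhere. The difference between them was 1.65 ± 0.17 (SD, n = 2) in RP, 1.45 ± 0.26 in Ctrl, 1.11 ± 0.19 in DOX, 1.38 ± 0.24 in DPD, 1.23 ± 0.11 in R+X and 1.55 ± 0.065 in R+D. RP and Ctrl therefore differed by 0.20, less than the SD of the Ctrl pair. Leaving out 1 Ctrl library moved this difference to 0.014 or 0.39. The 7 genes leave out 3 resident members, Adgre1, Cx3cr1 and Axl. With all 10 the difference was 0.49, more than that SD. Both sets hold Vsig4, which was not tested and had 10 and 5 counts in Ctrl and 0 and 4 in RP. Its log2 CPM was -2.09 and -2.69 in Ctrl and -4.67 and -3.25 in RP. The size of the difference therefore depends on a gene with few counts, and with the 7 genes its sign does too. Ly6c2, 1 of the 3 monocyte genes, is uncertain as stated above. Within the monocyte set, Plac8 was 0.654 and 0.551 of the Ccr2 level in RP and 0.191 and 0.179 of it in Ctrl. It was 0.514 of it in DOX replicate 1, where Ccr2 was low, and 0.148 to 0.323 in the other 7 libraries.

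**Figure D5:**
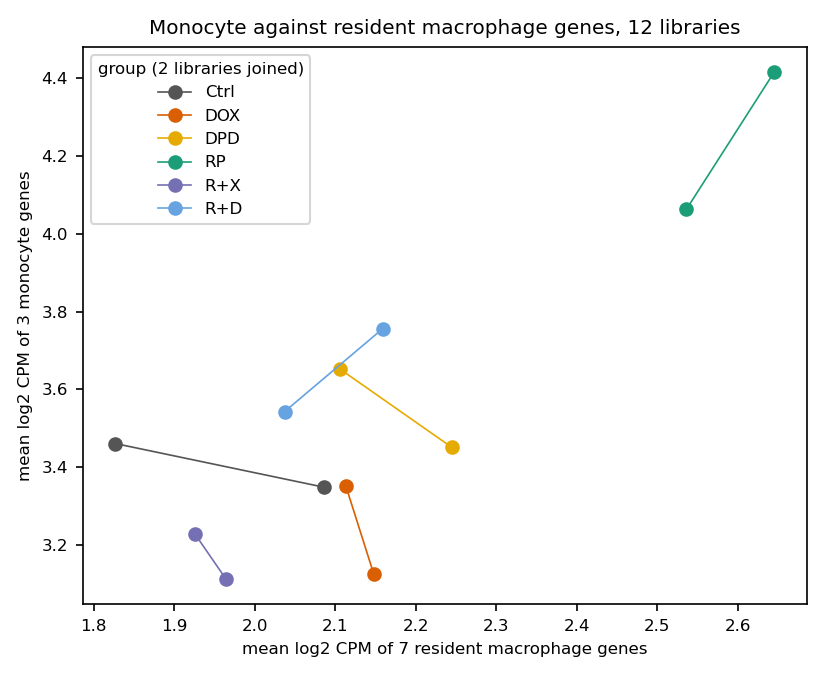
Mean log2 CPM of the 3 monocyte genes (vertical axis) against that of the 7 resident macrophage genes (horizontal axis), 1 point per library, with the 2 libraries of a group joined by a line. The RP libraries lie at the upper right, apart from the other 10.

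The drugs alone gave smaller differences. In DOX against Ctrl, edgeR called 0 of 33 members and 0% of all genes, with 1 member lower at an unadjusted p under 0.05 (3.03% against 1.22% of all genes). That gene was Clec7a, at 22.8 and 24.3 CPM in DOX and 28.1 and 43.3 CPM in Ctrl (log2 fold change -0.60 ± 0.24, edgeR adjusted p = 1). It was -0.26 without Ctrl replicate 2. Without DOX replicate 1 there were 6 members at that p. In DPD against Ctrl, edgeR called 0 members and 0% of genes, with 3 members higher at an unadjusted p under 0.05 (9.09% against 2.61% of all genes). These were Itgam, at 59.2 and 87.2 CPM in DPD, Siglec1, at 8.95 and 13.5 CPM, and Mrc1, at 43.9 and 56.9 CPM. Their log2 fold changes against Ctrl were 0.66 ± 0.26, 0.91 ± 0.37 and 0.58 ± 0.24, in that order. Leaving out the second DPD library gave 0.35, 0.58 and 0.37, and leaving out the second Ctrl library gave 0.42 for Itgam; the count of 3 was 0 without either of these libraries. DESeq2 called 0 members in either comparison, against 0.00512% of all genes in DOX and 0.0359% in DPD, and limma-voom called 0 against 0%.

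DPD against DOX compared the prodrug with its parent at the same mass. edgeR, DESeq2 and limma-voom each called 0 members, against 0%, 0.0461% and 0% of all genes. The 33 members had a median log2 difference of 0.25, with 28 of 33 above 0 against 47.6% of all genes. At an unadjusted p under 0.05 there were 6, all higher in DPD, which is 18.2% of the members against 3.01% of all genes. This count was 1 without DPD replicate 2. The median was 0.11 without DOX replicate 2 or without DPD replicate 1, and 0.44 without DOX replicate 1. Lyz2 was 1068 and 978 CPM in DPD and 820 and 643 CPM in DOX, a log2 difference of 0.48 ± 0.16 (0.32 without DOX replicate 2). Clec4n was 35.7 and 43.4 CPM in DPD and 25.7 and 24.2 CPM in DOX, a difference of 0.67 ± 0.25. Itgam was 59.2 and 87.2 CPM in DPD and 35.9 and 49.6 CPM in DOX, a difference of 0.78 ± 0.27 (0.46 without DPD replicate 2). All 3 had an edgeR adjusted p of 0.979.

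R+X and R+D were next set against RP. Members lay on both sides: Plac8 was below RP in both combinations, and Cx3cr1 above it by 0.87 ± 0.70 on the log2 scale in R+X and 0.86 ± 0.70 in R+D, about its standard error. These comparisons share the RP libraries with each other and with RP against Ctrl. In R+X against RP, edgeR called 0 members and 0% of genes. At an unadjusted p under 0.05 there were 9 members lower, 27.3% of the members against 6.43% of all genes, and 1 higher, 3.03% against 2.25%. Marco is among the 9, and its direction was set by the filter; without it there were 8 of 32 lower (25.0%). The count of 10, Marco included, was 5 without R+X replicate 2 and 4 with the muscle covariate. DESeq2 called 4 (Plac8, Ly6c2 and Cd163 lower, Gpnmb higher; 1.77% of all genes) and limma-voom called Plac8 (0.0256%). Plac8 was 3.56 and 3.54 CPM in R+X, the lowest of all libraries, and its log2 difference from RP was -2.11 ± 0.26 (edgeR adjusted p = 0.0609). Cd163 was 0.207 and 0.536 CPM in R+X, a difference of -2.50 ± 0.65, and Ly6c2 was 9.44 and 8.45 CPM, a difference of -0.97 ± 0.26. The Ly6c2 value was -0.25 with the muscle score as a covariate. Gpnmb was 143 and 178 CPM in R+X, above RP by 0.63 ± 0.17. The last 3 genes had an edgeR adjusted p of 0.278.

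In R+D against RP, edgeR called 0 members and 0% of genes, and limma-voom called 0 against 0%. At an unadjusted p under 0.05 there were 9 members, all lower in R+D, 27.3% against 1.95% of all genes. Marco is again among them, and without it there were 8 of 32 (25.0%). The count of 9, Marco included, was 4 without R+D replicate 1 and 5 without RP replicate 1. DESeq2 called Plac8 and Slc11a1, against 0.0512% of all genes. Slc11a1 was 9.03 and 8.06 CPM in R+D, both below every other library, and its log2 difference from RP was -0.93 ± 0.17. Plac8 was 5.8 and 6.9 CPM in R+D, a difference of -1.27 ± 0.25. Cd14 was 28.4 and 37.9 CPM, a difference of -0.88 ± 0.26, which was -0.35 without RP replicate 2. All 3 had an edgeR adjusted p of 1.

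Against Ctrl, neither combination gave a called member. In R+X against Ctrl, edgeR called 0 members and 0% of genes, with 4 members higher at an unadjusted p under 0.05 (12.1% against 3.53% of all genes). Siglec1 was 10.3 and 12.6 CPM in R+X (log2 difference 0.93 ± 0.37), Mrc1 was 48.5 and 51.2 CPM (0.56 ± 0.24), and Itgam was 69.9 and 72.3 CPM (0.62 ± 0.26, and 0.38 without Ctrl replicate 2). The count of 4 was 0 without Ctrl replicate 2 or R+X replicate 2, and 1 without Ctrl replicate 1 or R+X replicate 1. In R+D against Ctrl, edgeR called 0 members and 0% of genes, with 2 members lower at an unadjusted p under 0.05 (6.06% against 6.66% of all genes). These were Slc11a1, by -0.56 ± 0.17, and Gpnmb, by -0.41 ± 0.17, at 105 and 126 CPM in R+D. The count of 2 was 1 without Ctrl replicate 2 or R+D replicate 2. DESeq2 called 0 members in both, against 0.0205% of all genes in R+X and 1.34% in R+D, and limma-voom called 0 against 0%.

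Against the matching drug, R+X differed from DOX in 3 members at an unadjusted p under 0.05, all higher (9.09% against 1.75% of all genes): Clec7a (0.72 ± 0.24), Itgam (0.73 ± 0.27) and Cd33 (0.75 ± 0.32, and 0.47 without DOX replicate 1). R+D differed from DPD in 2, both lower (6.06% against 0.789%): Slc11a1 (-0.67 ± 0.17) and Adgre1 (-0.50 ± 0.20), which was 19.8 and 17.1 CPM in R+D and 25.8 and 26.4 CPM in DPD. In R+X against DOX and in R+D against DPD the drug's route differed as well, so conjugate and route cannot be told apart. R+D differed from R+X in 4. Plac8 (0.84 ± 0.25) and Ly6c2 (0.57 ± 0.25) were higher in R+D (6.06% against 3.75% of all genes), and Gpnmb (-0.48 ± 0.17) and Clec7a (-0.63 ± 0.24) lower (6.06% against 1.52%). The Ly6c2 value was 0.87 without R+D replicate 1 and 0.15 without R+D replicate 2, and with the muscle score as a covariate it turned to -0.021. The count in R+X against DOX was 7 without DOX replicate 2 and 1 without R+X replicate 2, that in R+D against DPD was 6 without DOX replicate 1 or DOX replicate 2, and that in R+D against R+X was 2 without R+X replicate 2 or R+D replicate 2. In these 3 comparisons edgeR and limma-voom called 0 members and 0% of all genes. DESeq2 called 0 members, against 0.0154% of all genes in R+X against DOX, 0.0359% in R+D against DPD and 0.219% in R+D against R+X.

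Whether the conjugate's difference depended on the drug was tested as an interaction, with the drug's route mixed in. The drug went beside the tumour in R+X and R+D, and into the abdomen in DOX and DPD. The part of the route therefore cannot be told apart from that of the conjugate or the drug. For DOX, the difference of R+X from DOX minus that of RP from Ctrl had 5 members lower at an unadjusted p under 0.05 (15.2% against 2.75% of all genes) and 1 higher (3.03% against 0.958%). Plac8 had -2.19 ± 0.36 on the log2 scale (edgeR adjusted p = 0.998), and DESeq2 called it (0.0307% of all genes). Cd163 had -2.86 ± 0.91 and Ly6c2 -1.03 ± 0.36, the latter -0.53 with the muscle score as a covariate. Gpnmb had 0.53 ± 0.23. The count of 6 was 3 without R+X replicate 2. For DPD, the corresponding value had 10 members, all lower (30.3% against 3.45%), or 9 of 32 without Marco (28.1%), with Plac8 at -1.55 ± 0.35, Slc11a1 at -1.04 ± 0.25 and Adgre1 at -1.06 ± 0.29 (edgeR adjusted p = 0.840). Adgre1 was -0.64 with RP replicate 1 and R+D replicate 2 left out. edgeR and limma-voom called 0 members and 0% of genes in both interactions, and DESeq2 called 0 members for DPD, against 0.0699% of all genes.

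Averaged over the 3 drug settings, the conjugate (RP, R+X and R+D against Ctrl, DOX and DPD) gave 0 members called by edgeR, against 0.0154% of all genes. At an unadjusted p under 0.05 there were 4 members higher, 12.1% of the members against 10.9% of all genes, and 1 lower, 3.03% against 9.47%. These shares were near or below those of all genes. In the settings with a drug, its route also differed between the groups with and without conjugate, so the 2 cannot be told apart there. The count of 5 members at that p was 2 with the muscle score as a covariate. Mrc1 had a log2 difference of 0.47 ± 0.14 (edgeR adjusted p = 0.172), which was 0.23 with the muscle score as a covariate. Plac8 had 0.44 ± 0.14 (0.23 with that covariate), Itgam had 0.42 ± 0.15 and Gpnmb had -0.32 ± 0.10. DESeq2 called Mrc1 and Gpnmb (5.9% of all genes), and limma-voom called 0, against 0.0154%.

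Other genes of these pathways were taken from 5 lists of ligands, transcription factors and further monocyte, resident and lipid-associated genes. In RP against Ctrl and in the averaged comparison, edgeR called 0 of 42 tested genes of these lists. Of the genes described below, DESeq2 called F13a1, Stab1, Slc40a1, Gas6, Irf8, Cd9 and Cd63 in RP against Ctrl, but not Csf1. Their DESeq2 adjusted p ran from 2.63e-10 (F13a1) to 0.0397 (Cd63), and 7.34% of all genes were called. In the averaged comparison DESeq2 called F13a1, Stab1, Gas6, Cd9 and Cd63, against 5.9% of all genes. Among 8 further monocyte genes tested, 4 were higher in RP at an unadjusted p under 0.05 and 0 lower, with a list median of 0.87; of all genes tested, 12% were higher and 9.38% lower at that p, with a median of 0.058. F13a1, the coagulation factor XIII subunit of monocytes and macrophages, was 48.2 and 73.9 CPM in RP and 15.2 and 15.4 CPM in Ctrl, a log2 fold change of 2.00 ± 0.25 (edgeR adjusted p = 0.0503). Its other 8 libraries held 24.9 to 40.0 CPM, so both Ctrl libraries were lowest.

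Among 8 further resident genes, 4 were higher in RP at an unadjusted p under 0.05 and 0 lower, with a median of 0.95. At that p, used for the lists below too, 12% of all genes were higher and 9.38% lower. Stab1, a scavenger receptor also made by endothelium, was 149 and 102 CPM in RP and 70.8 and 48.2 CPM in Ctrl (1.08 ± 0.27). The 6 endothelial markers summed to 147 and 109 CPM in RP and 64.3 to 100 CPM in the other libraries, and their part in the Stab1 level was not tested. Slc40a1, the iron exporter, had 2.17 ± 0.65 in RP, and 0.79 with the muscle score as a covariate. Of 9 ligands, 2 were higher and 0 lower: Gas6, the ligand of AXL and MERTK, had 2.03 ± 0.57, which was 1.04 without RP replicate 1 and 0.67 with the muscle score as a covariate. Csf1, the ligand of CSF1R, had 0.50 ± 0.19, which was 0.33 without Ctrl replicate 2 and 0.29 with that covariate. Of 8 transcription factors, 1 was higher, a share near that of all genes: Irf8 of the monocyte lineage, at 55.2 and 49.9 CPM in RP and 34.03 and 32.4 CPM in Ctrl (0.66 ± 0.16). Of 9 lipid-associated genes, 1 was higher and 3 lower. Cd9 was 269 and 323 CPM in RP and 497 and 650 CPM in Ctrl (-0.95 ± 0.23), and Cd63, another tetraspanin, had -0.81 ± 0.25; many cell types make both.

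Likeness to Csf1r, the receptor that marks the lineage, was measured over the 12 libraries for the other 33 members. Adgre1 was most like it, with Pearson's r = 0.91 (permutation test, adjusted p = 0.0033) and Spearman's rho = 0.87 (permutation test, adjusted p = 0.0165). Without RP replicate 1 and R+D replicate 2, the libraries farthest from the Csf1r median, r was 0.74 (permutation test, adjusted p = 0.261) and 0 members passed. Slc11a1 came second, with r = 0.76 (permutation test, adjusted p = 0.0525) and rho = 0.71, and with r = 0.093 after group means were removed. With group means removed, r of Adgre1 was 0.85.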

How the data were processed

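Total RNA of 12 tumour samples was sequenced, with TRIzol extraction and NEBNext Ultra libraries per the labels' protocols. The authors deposited whole-number counts per gene, not normalised. Per the submitters' processing notes, HISAT2 2.1.0, StringTie 1.3.5, DESeq2 and build GRCm38 were named; annotation, strand setting and filters were not given in the sources used here, so overlapping and antisense genes cannot be told apart. Groups came from the agent label.

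All 12 libraries were fitted in 1 model with edgeR 4.0.16 (quasi-likelihood, TMM, filterByExpr, 6 residual degrees of freedom), with Benjamini-Hochberg adjustment over 19525 genes and a threshold of 0.05. Log2 levels used a prior count of 2, exon lengths came from GENCODE M21, and correlations used 100000 permutations. Alternatives were DESeq2 1.42.0, other scaling, no filter, each library left out, only the groups compared, a muscle covariate and limma-voom (limma 3.58.1). The members and lists were chosen with earlier results of these data known. Fold changes are given for up to 3 members of smallest p in each direction, at an unadjusted p under 0.05, and for 2 genes per pathway list; DESeq2 calls are named beside them. A gene that this rule also names is not reported here.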

Additional observations from a re-analysis of the deposited data

How the results depend on the processing

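The count of members called by edgeR was 0 in all 14 comparisons. Under DESeq2 it was 7 in RP against Ctrl, 4 in R+X against RP, 2 in R+D against RP, 2 in the averaged conjugate comparison and 1 in the interaction for DOX. Under limma-voom, chosen after seeing the data, it was 1 in RP against Ctrl and 1 in R+X against RP. With only the groups compared it was 4 in RP against Ctrl (Plac8, Cd163, Mrc1 and Marco, the last past the filter only through RP; 2.77% of all genes were called), and with no low-count filter 1 in R+X against RP. With single libraries left out it ranged from 0 to 1 in RP against Ctrl (Plac8, without DOX replicate 1 or DOX replicate 2), from 0 to 1 in R+X against RP (Plac8, without DOX replicate 1, DOX replicate 2 or RP replicate 2) and from 0 to 3 in the averaged comparison (Itgam, Mrc1 and Gpnmb, without DOX replicate 2, where 15.6% of all genes were called). DESeq2 size factors in edgeR, the muscle covariate, and leaving out RP replicate 1 with R+D replicate 2 (added after seeing the data) gave 0 in every comparison.

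Of the alternative values of single genes, 1093 kept direction and side of the threshold, 51 passed it and 2 reversed, both with the muscle covariate: Ace in the averaged comparison became -0.010 and Ly6c2 in R+D against R+X became -0.021. The monocyte-minus-resident difference of RP from Ctrl was 0.49 with all 10 resident members. Both resident sets hold Vsig4, a gene with few counts on which the difference depends. With single libraries left out (chosen after seeing the data) the difference from Ctrl ranged from -0.53 to -0.15 in DOX, -0.26 to 0.11 in DPD, 0.014 to 0.39 in RP, -0.41 to -0.036 in R+X and -0.082 to 0.29 in R+D. Without the 2 libraries farthest from the Csf1r median, 0 members passed in likeness to Csf1r. No paired analysis was possible because the labels number no replicates. The cause of these shifts was not tested. Depth limits Vsig4, Marco and Cd163, whose counts were few.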
